A study of Drosophila melanogaster with 3 samples.

Results

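The calls described here are transposable element (TE) insertions that lie in an exon or in an untranslated region (UTR) of an annotated gene of the Oregon-R w1118 strain of *D*. *melanogaster* (ORw1118). The authors' list of insertions absent from the reference genome gives each call a class for every gene it overlaps. A call was taken when exon, 5′ UTR or 3′ UTR was among these classes, which held for 193 of 1702 calls from paired reads treated as single-end. In any of their entries, 75 calls were classed as exon, 33 as 5′ UTR and 89 as 3′ UTR, and 4 calls had classes of more than one of these kinds. They are set beside the 920 calls classed only as intron. The remaining 589 calls are intergenic.

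Genomic DNA of 100 adult ORw1118 females per biological replicate was sequenced in 3 replicates from flies grown at 25 °C, with no treatment and no second genotype. The 3 replicates were pooled before insertions were called, so each call has 1 value, with no spread between replicates. The strain is the only group here, and all comparisons are between sets of loci within it. Loci are not replicates, so no test was made between gene parts, and all intervals given are exact 95% intervals that cover counting error only. Those of single ratios also take each supporting read as independent. The reads of a pair overlap in these libraries, so both may come from the same stretch of a fragment, which these limits leave out.

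TEs are DNA sequences that copy or move themselves within a genome. LTR retrotransposons and non-LTR retrotransposons move through an RNA copy, whereas elements with terminal inverted repeats (TIR) move as DNA. An insertion in a coding exon interrupts the protein sequence, an insertion in a 5′ UTR lies in the transcribed leader, where translation is often regulated, and an insertion in a 3′ UTR lies where many binding sites for regulators of mRNA stability are found. In flies, natural insertions are known from all of these places, and many more lie in introns.

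Support for a call rests on 3 values. Supporting reads are split reads, of which one part matches a TE and the other the genome next to it. Reference reads span the site without the TE, and the coverage ratio is the number of supporting reads divided by the number of reference reads plus 1. A ratio of at least 3 is the minimum that the study required for its TEs. A ratio under 1 means fewer supporting reads than reference reads plus 1. The authors normalized the reference reads and not the supporting reads, so these counts need not share a scale. The share of the pooled flies that carry an insertion was not measured.

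The places of the calls in protein-coding genes went with their classes, and those in non-coding genes did not. In RefSeq, all 227 gene entries of the 193 calls have a gene span that meets at least part of the insertion interval. Release 6 is the build of all positions given here. Places in genes are interval midpoints, and midpoints beyond a gene were set to its end. A place at either end of a gene can therefore stand for a midpoint outside its span. In 5′ to 3′ direction along protein-coding hosts, 3′ UTR calls lay at a median of 96.0% of the gene span (interquartile range 91.7% to 99.3%, 79 entries). The 5′ UTR calls lay at 2.78% (0% to 24.1%, 21 entries). Exon calls were spread along the gene, with a median of 60.4% (36.8% to 83.9%, 75 entries). Intron-only calls lay at a median of 38.3% (18.5% to 60.9%, 953 entries). Over entries with hosts of all kinds, the gene spans of intron-only calls were long, with a median of 42.4 kb. Those of exon, 5′ UTR and 3′ UTR calls had medians of 3.10, 1.86 and 3.89 kb. In these medians a gene counts once for each of its entries.

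**Figure D1:**
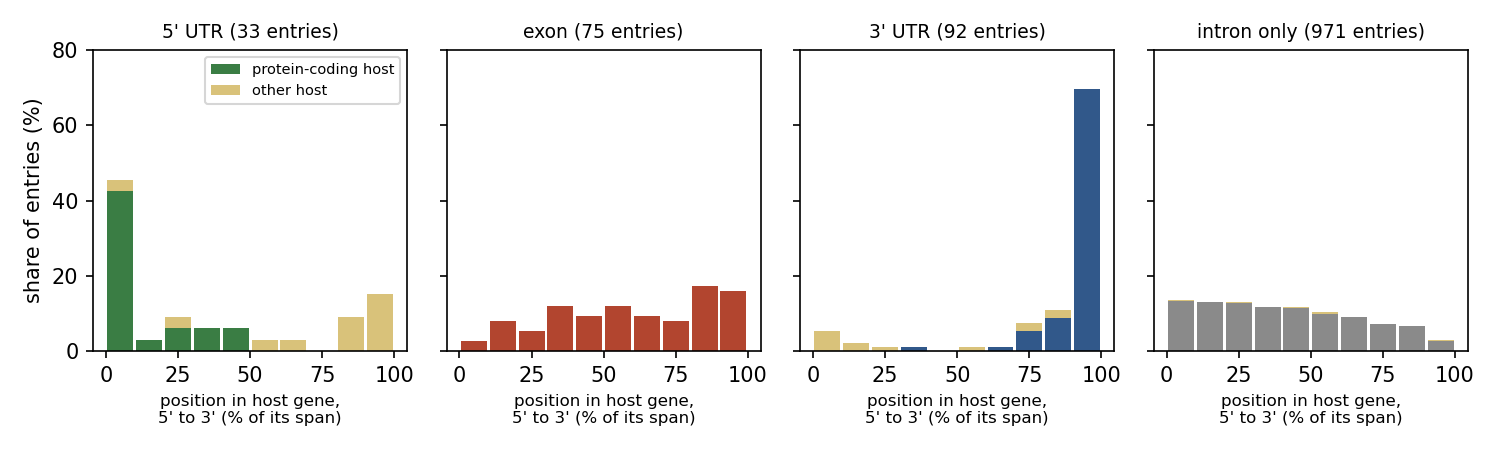
Position of each call in its host gene, as the midpoint of the insertion interval in percent of the RefSeq gene span from its 5′ to its 3′ end (x axis, bins of 10%, midpoints beyond a gene set to its end), and the share of gene entries (y axis, %). The last bin holds 69.6% of 3′ UTR entries and the first bin 45.5% of 5′ UTR entries, and pale bars mark hosts that are not protein-coding.

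Not every call labelled as UTR lies in the UTR of a messenger RNA. All 75 exon entries belong to protein-coding genes. Of the 33 5′ UTR entries, 12 belong to genes without a protein, 11 of them long non-coding RNAs (lncRNAs) and 1 an antisense RNA. Of the 92 3′ UTR entries, 13 belong to such genes, among them 9 lncRNAs. Among these 25 entries, the label went with the strand of the gene in place of its 5′ or 3′ end. All 12 5′ UTR entries were on the plus strand, where 10 lay past the middle of the gene (median 87.7% of its span). All 13 3′ UTR entries were on the minus strand, at a median of 19.96%. Their places varied more, with 5 of the 13 past the middle, up to 85.9%. For these genes the label says no more than that the authors placed the call in the transcript, and it is given below as the authors' class. In protein-coding hosts, 8 of 21 5′ UTR entries and 43 of 79 3′ UTR entries were on the plus strand. The 193 calls name 192 host genes in exon or UTR entries, of which 167 are protein-coding, and 27 calls also lie in an intron of another gene.

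Calls in exons and UTRs covered much the same range of support as calls in introns. A coverage ratio of at least 3 was reached by 29 of the 193 calls (15.03%, exact interval 10.3% to 20.9%) and by 138 of the 920 intron-only calls (15%, 12.7% to 17.5%), beside 16.4% of all 1702 calls. A ratio under 1 was found for 107 exon or UTR calls (55.4%), 488 intron-only calls (53.0%) and 51.1% of all calls. The median ratio was 0.7 (interquartile range 0.3 to 2.0) for exon or UTR calls and 0.8 (0.3 to 2.02) for intron-only calls, and the intervals of the medians, 0.5 to 1 and 0.8 to 1, overlapped. Median supporting reads were 36 and 35. Both sets held many weakly supported calls, and the shares of both lay near those of all calls.

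The intervals of the shares overlapped between gene parts. Of the exon calls, 12 of 75 had a ratio of at least 3 (16.0%, 8.55% to 26.3%). Of the 3′ UTR calls, 15 of 89 did (16.9%, 9.75% to 26.3%). Of the 5′ UTR calls, 2 of 33 did (6.06%, 0.743% to 20.2%), an interval that includes the shares of the other gene parts. In merged reads the shares were 12.7% for exon (5.64% to 23.5%), 12.9% for 5′ UTR (3.63% to 29.8%) and 23.8% for 3′ UTR calls (14.9% to 34.6%), so their order was not kept. Without non-coding hosts the shares in reads treated as single-end were 16% for exon, 4.76% for 5′ UTR (0.120% to 23.8%) and 17.1% for 3′ UTR calls (9.43% to 27.5%). Median coverage ratios were 0.8 for exon, 0.6 for 5′ UTR and 0.7 for 3′ UTR calls, and median supporting reads were 42, 21 and 33.

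**Figure D2:**
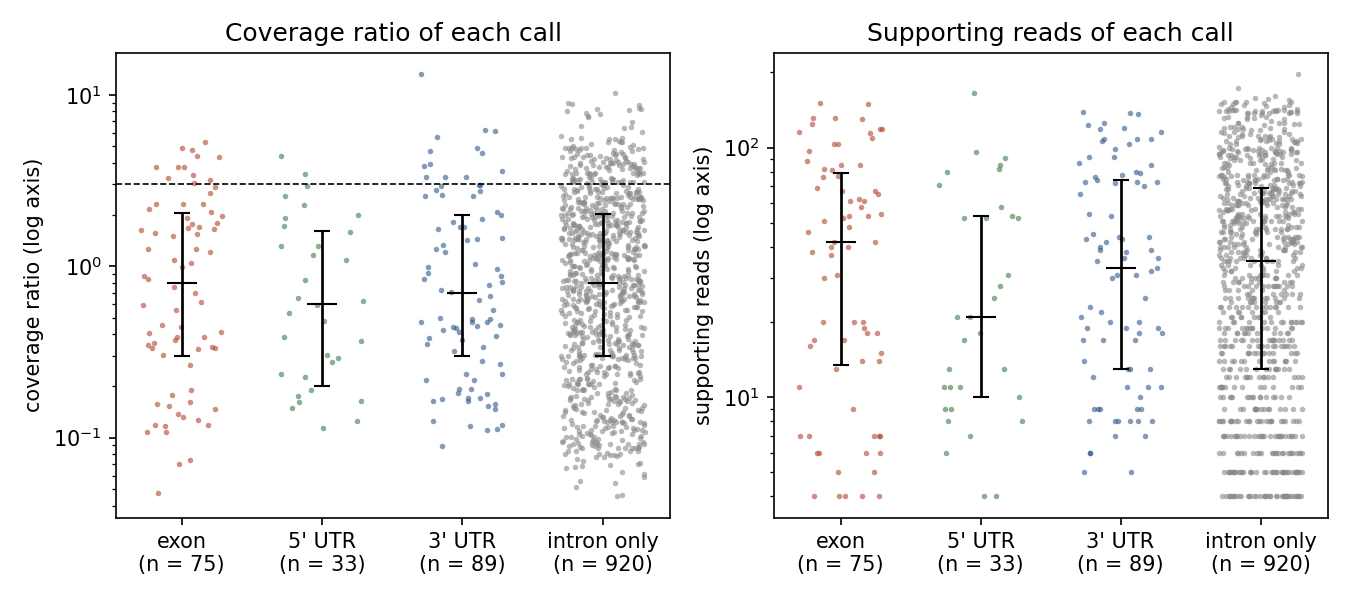
Coverage ratio (left, log axis) and supporting reads (right, log axis) of each call from reads treated as single-end, by gene part and for intron-only calls. Points are calls, bars give the median and the interquartile range, and the dashed line is the ratio of 3. The 4 sets overlap over almost their whole range, with 12, 2, 15 and 138 calls at or above a ratio of 3.

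The ratio is made from both read numbers, and high ratios went with many supporting reads and, to a lesser degree, with fewer reference reads. The 29 exon or UTR calls at or above the minimum of 3 were supported by 70 to 165 reads (median 119) and a median of 27.8 reference reads. Between a ratio of 1 and the minimum, the medians of 57 calls were 67 supporting and 36.5 reference reads. At the low end, 76 calls had a ratio under 0.5, with 4 to 53 supporting reads (median 9.5) and a median of 45.5 reference reads. Intron-only calls with a ratio under 0.5 had a median of 8 supporting reads.

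**Figure D3:**
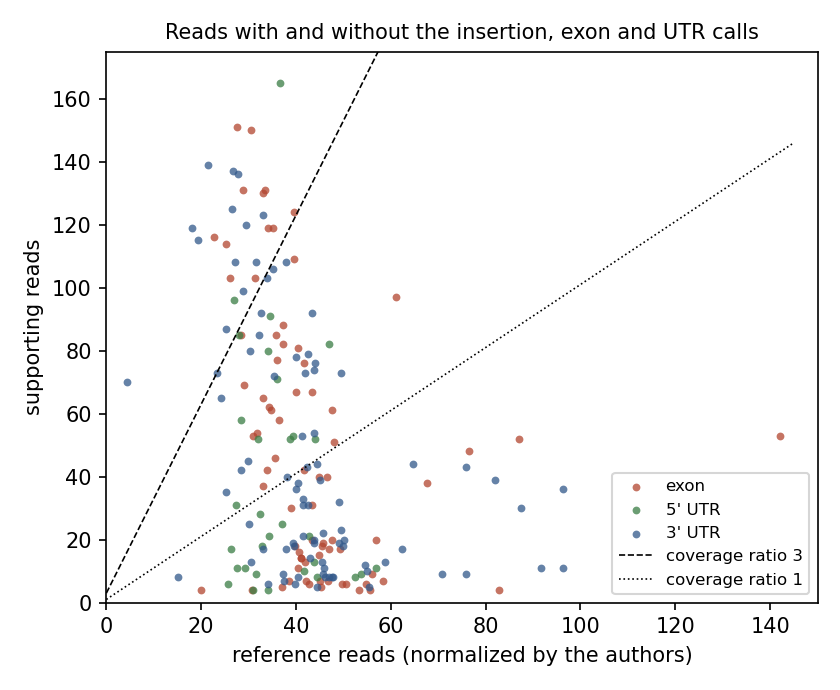
Supporting reads (y axis) against normalized reference reads (x axis) of the 193 exon and UTR calls, coloured by gene part (exon first for calls in several parts). The 29 calls on or above the dashed line have a rounded coverage ratio of at least 3, and the point at 4.3 reference reads is the *jockey* in the 3′ UTR of CG1986.

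Among exon calls found in both lists, the highest ratio belonged to an *FB*, a foldback element, on 2R between 17441813 and 17442041, in an exon of CG18467 and an intron of *EDTP*. It had 151 supporting reads, 82 on the first and 69 on the second side, and 27.5 reference reads, a ratio of 5.3 (exact interval from the supporting reads, 4.49 to 6.21). Merged reads gave 4.8. An *mdg1* on 2R between 24474010 and 24474255 in an exon of CG3492 had 131 supporting reads and 28.9 reference reads, a ratio of 4.4 (3.66 to 5.20). Both calls kept their exon entry in merged reads.

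An *mdg3* in an exon of *hiw*, on X between 15012403 and 15012645, had 114 supporting reads and a ratio of 4.4 (3.59 to 5.23), with 4.3 in merged reads. *hiw* encodes an E3 ubiquitin ligase that restrains synaptic growth, and the insertion is one of those that the study examined by FISH. The interval lies at 95.5% of the gene span. Another of the FISH insertions, an *mdg1* on 3L between 371494 and 371717 in an exon of *trh*, a transcription factor gene of the trachea, had 124 supporting reads, 39.6 reference reads and a ratio of 3.1 (2.54 to 3.64), near the minimum. Its interval lies at 80.5% of the gene span.

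A *roo* on X between 6199670 and 6199895 in an exon of CG43090 had 130 supporting reads and a ratio of 3.8 (3.19 to 4.53). The host is short, with a span of 0.676 kb, and the interval lies at 16.1% of it. A *412* on 3L between 9595225 and 9595490 in an exon of CG42673 had 103 supporting reads and a ratio of 3.8 (3.10 to 4.61).

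For 4 of the 12 exon calls with a ratio of at least 3, the exon class was not kept in merged reads, where the same insertion was classed only as intron. These were a *Transpac* in *rad* (RefSeq *rsh*, ratio 4.9 and 6.6 in merged reads), a *Transpac* in CG14207 (4.8 and 4.8), a *roo* in *Sema-1a* (3.8 and 4.0) and a *pogo* in *CaMKII* (3.2 and 4.3). *Sema-1a* encodes a transmembrane semaphorin of axon guidance and *CaMKII* a calcium-dependent protein kinase of neurons, and *CaMKII* was named after its values were seen. The insertion intervals of these 4 calls were 229 to 245 bp wide in reads treated as single-end and 285 to 292 bp in merged reads. All 15 of the 3′ UTR calls and both 5′ UTR calls with a ratio of at least 3 kept their gene part in merged reads. Whether the inserted TE lies in the exon or beyond its edge is therefore not settled by the calls for these 4 hosts.

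Of the weakest exon calls, those with most supporting reads at a ratio under 0.5 were a *Transpac* in *Maf1*, an *FB* in *debcl* and a *flea* in *cp309* (RefSeq *Plp*). The *Transpac* in *Maf1*, a repressor gene of RNA polymerase III, had 53 supporting reads against 142.1 reference reads, the most reference reads of any call in the list. Its interval on 2R was 82 bp wide, and merged reads classed it as intron. The *FB* in *debcl*, a gene of the Bcl-2 family, and the *flea* in *cp309*, a gene of the centrosome, each had 20 supporting reads. All but 1 of the reads for this *flea* were from a single side, and merged reads did not call it.

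Among calls labelled as 5′ UTR, the highest ratio belonged to a *copia* on 2R between 10854310 and 10854545 with 165 supporting reads (84 and 81), the most of any exon or UTR call, and a ratio of 4.4 (3.74 to 5.11). Its host CR45136 is an antisense RNA, in which the interval lies at 92.8% of the span, and the call also lies in an intron. A *3S18* on 2L between 20463418 and 20463644 at the 5′ UTR of CG2493 had 96 supporting reads (22 and 74) and a ratio of 3.4 (2.79 to 4.20), with 3.7 in merged reads. The midpoint of its interval is given as 0% of the gene span, and so lies at or before the gene start. By the authors' class, this *3S18* was the only 5′ UTR call of a protein-coding gene with a ratio of at least 3.

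Just under the minimum were a *Burdock* in the lncRNA CR45234, with a ratio of 2.9 that was 3.9 in merged reads, and a *roo* in the 5′ UTR of *baz*. *baz* encodes a scaffold protein of cell polarity, and its *roo* on X between 17178532 and 17178762 had 91 supporting reads (32 and 59), 34.6 reference reads and a ratio of 2.6 (2.06 to 3.14). The other 4 of the 8 calls with the highest ratios were a *gypsy* in the lncRNA CR45530 (2.3), a *roo* in CG18446 (RefSeq *Lime*, 2.0), a *hopper* in the lncRNA CR44550 (1.9) and an *Ivk* in CG32219 (1.7). Under a ratio of 0.5, the calls with most supporting reads were a *hobo* in *Shawl*, a potassium channel gene, and a *roo* shared by CG14933 and CG42486, with 13 each, and an *I-element* in the lncRNA CR44596 with 11. Of the 33 calls, 8 had fewer than 10 supporting reads.

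The highest ratio among all 193 calls was in a 3′ UTR. A *jockey* on X between 9909208 and 9909299 in the 3′ UTR of CG1986 had 70 supporting reads (30 and 40) and a ratio of 13.2 (10.3 to 16.7). The ratio rested on a low number of reference reads, 4.3, the lowest of any exon or UTR call, and merged reads gave a ratio of 4.0 with 40 supporting reads. The interval leaves out the error of the reference reads, and the ratio in merged reads lies outside it. By supporting reads, this call was the lowest of the 29 calls at or above the minimum.

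The next 3 calls had more reads and stayed close to their ratio in merged reads. An *Ivk* on 2L between 8959826 and 8960047 in CG9525 had 119 supporting reads (88 and 31) and a ratio of 6.3 (5.19 to 7.50), and 6.2 in merged reads. An *opus* on X between 1374322 and 1374554 in *ssx*, which encodes an RNA-binding relative of Sex-lethal, had 139 supporting reads (67 and 72) and a ratio of 6.2 (5.19 to 7.29), and 6.4 in merged reads. Another *opus* on X, between 3705770 and 3705956 in *Rala*, the gene of a small GTPase, had 115 supporting reads and a ratio of 5.6 (4.65 to 6.77), and 5.1 in merged reads.

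The other 4 of the 8 highest were a *jockey* in the lncRNA CR44902 (4.9), a *roo* in *Tsp3A*, which encodes a tetraspanin (4.7), a *roo* in the lncRNA CR45521 (4.6) and a *pogo* in CG42507 (3.9). In these 4 calls 120 to 137 supporting reads faced 26.4 to 29.5 reference reads. Near the minimum, an *opus* in CG16727 and a *297* in *wnd* each had a ratio of 3.0, with 2.4 and 2.5 in merged reads. At a ratio under 0.5, most reads supported a *HeT-A* in *Caps* on chromosome 4 (RefSeq *Cadps*, a gene of dense-core vesicle release), with 36 supporting and 96.3 reference reads. After it came a *Max-element* shared by CG33932 and *Rpp20* (30 and 87.5) and an *FB* in *brat*, a translational repressor gene (20 and 50.2).

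Most exon or UTR calls were found again in merged reads. A call of the same family with an overlapping interval existed for 160 of the 193 calls (82.9%, 76.8% to 87.9%), for 776 of 920 intron-only calls (84.3%, 81.8% to 86.6%) and for 85.4% of all calls. The 33 others had a median of 7 supporting reads (range 4 to 51), 25 of them under 10, and none had a ratio above 1. The same pooled reads underlie both lists, and a second call is no independent observation. A ratio of at least 3 in both lists was found for 26 exon or UTR calls (13.5%) and 119 intron-only calls (12.9%), beside 14.5% of all calls. These 26 were 11 exon, 2 5′ UTR and 13 3′ UTR calls.

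The class of an insertion could differ between the lists. Of the 160 calls, 151 were exon or UTR calls in merged reads too, and 9 were classed only as intron, 7 of them exon calls. Of 60 exon calls found again, 53 kept an exon entry, of 27 5′ UTR calls 25 kept theirs, and of 76 3′ UTR calls 73 did. Intervals were wider in merged reads, with medians of 266.5 bp and 221 bp over the 160 calls. Conversely, 14 calls were exon or UTR calls only in merged reads, 7 of them intronic and 7 intergenic in reads treated as single-end.

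**Figure D4:**
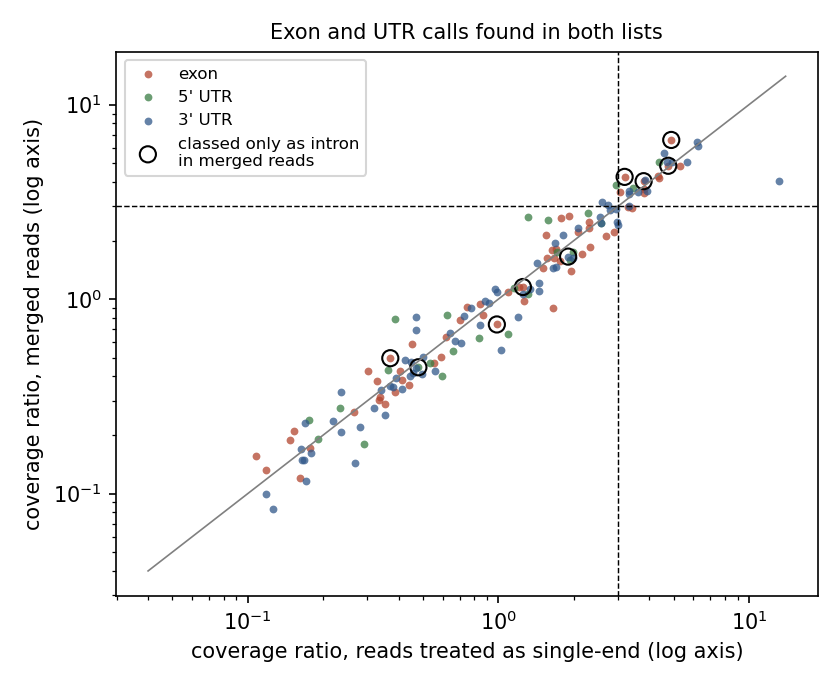
Coverage ratio in merged reads (y axis, log) against the ratio in reads treated as single-end (x axis, log) for the 160 exon and UTR calls found in both lists, coloured by gene part (exon first for calls in several parts). The solid line marks equal ratios, dashed lines mark a ratio of 3, and circles mark the 9 calls that merged reads classed only as intron. The lone point far under the line is the *jockey* in CG1986 (13.2 and 4.0).

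LTR retrotransposons made up most exon and UTR calls. Of the 193 calls, 119 were LTR elements (61.7%, 54.4% to 68.5%), 33 non-LTR elements (17.1%, 12.1% to 23.2%) and 41 TIR elements (21.2%, 15.7% to 27.7%). Among intron-only calls, LTR elements were 48.8% (45.5% to 52.1%), non-LTR elements 17.5% and TIR elements 33.2% (30.1% to 36.3%). The intervals of the LTR shares, and those of the TIR shares, did not overlap between these sets. Over all 1702 calls, LTR elements were 52.9% (50.5% to 55.3%) and TIR elements 26.1% (24.0% to 28.2%), and these intervals overlapped those of exon or UTR calls. Without *FB*, LTR elements were 68.8% (61.3% to 75.6%) and 60.4% (56.8% to 64.0%) and TIR elements 12.1% (7.67% to 17.96%) and 17.2% (14.6% to 20.1%), and the intervals overlapped. By gene part, LTR elements were 62.7% of exon, 57.6% of 5′ UTR and 61.8% of 3′ UTR calls.

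LTR calls had the highest median ratio, 1.0, though the 2 highest single ratios belonged to non-LTR calls, the *jockey* in CG1986 and the *Ivk* in CG9525. A ratio of at least 3 was reached by 21 of 119 LTR calls (17.6%, 11.3% to 25.7%), 3 of 33 non-LTR calls (9.09%, 1.92% to 24.3%) and 5 of 41 TIR calls (12.2%, 4.08% to 26.2%). The shares of intron-only calls were close to these, 19.6% for LTR, 8.1% for non-LTR and 12.1% for TIR calls. Over all calls, 186 of 901 LTR, 32 of 343 non-LTR and 61 of 444 TIR calls reached it. Non-LTR exon or UTR calls had a median ratio of 0.4 with 17 supporting reads, and TIR ones a median of 0.5 with 20. In intron-only calls the medians were 1.2 for LTR, 0.8 for non-LTR and 0.6 for TIR calls, so the LTR median was highest in both sets.

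The 193 calls belonged to 43 families, and the 5 most frequent held 82 of them (42.5%). The LTR element *roo* came first with 34 calls (17.6%, 12.5% to 23.7%), 12 in exons, 8 in 5′ UTRs and 15 in 3′ UTRs, one of them in an exon and a UTR. Its share of intron-only calls was 17.1% (14.7% to 19.7%). The foldback element *FB* came next with 20 calls (10.4%, 6.45% to 15.5%), 13 of them in exons. In introns *FB* was the most frequent family, with 177 calls (19.2%, 16.7% to 21.9%), and the intervals of its shares did not overlap. Its share of all 1702 calls, 12.3% (10.8% to 13.9%), lies within the interval of the exon or UTR calls. Of the 20 *FB* calls, 1 reached a ratio of 3, the call in CG18467, and their median was 0.4, as in introns.

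The LTR element *flea* and the non-LTR element *jockey* each had 10 calls, and the LTR elements *412* and *opus* 8 each. No exon or UTR call of *flea* exceeded a ratio of 1.1, whereas those of *opus* had ratios from 1.0 to 6.2 with at least 43 supporting reads, 6 of them in 3′ UTRs. Among intron-only calls, 3 of 22 *flea* calls and 9 of 27 *opus* calls had a ratio of at least 3, with median ratios of 0.6 and 1.8. For exon or UTR calls of *412*, the ratios ran from 0.2 to 3.8 with a median of 1.55. The family *17*.*6*, named after its values were seen, had 6 exon or UTR calls and 3 intron-only calls among its 16 calls. It made up 3.11% (1.15% to 6.64%) of exon or UTR calls and 0.326% (0.0673% to 0.95%) of intron-only calls, without overlap of the intervals. Its share of all calls was 0.94% (0.538% to 1.52%), an interval that overlapped that of exon or UTR calls. Of its 6 exon or UTR calls, 2 passed the minimum, in the 3′ UTRs of CG32506 (3.8) and CG15695 (3.6), as did 2 of the 3 intron-only calls.

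**Figure D5:**
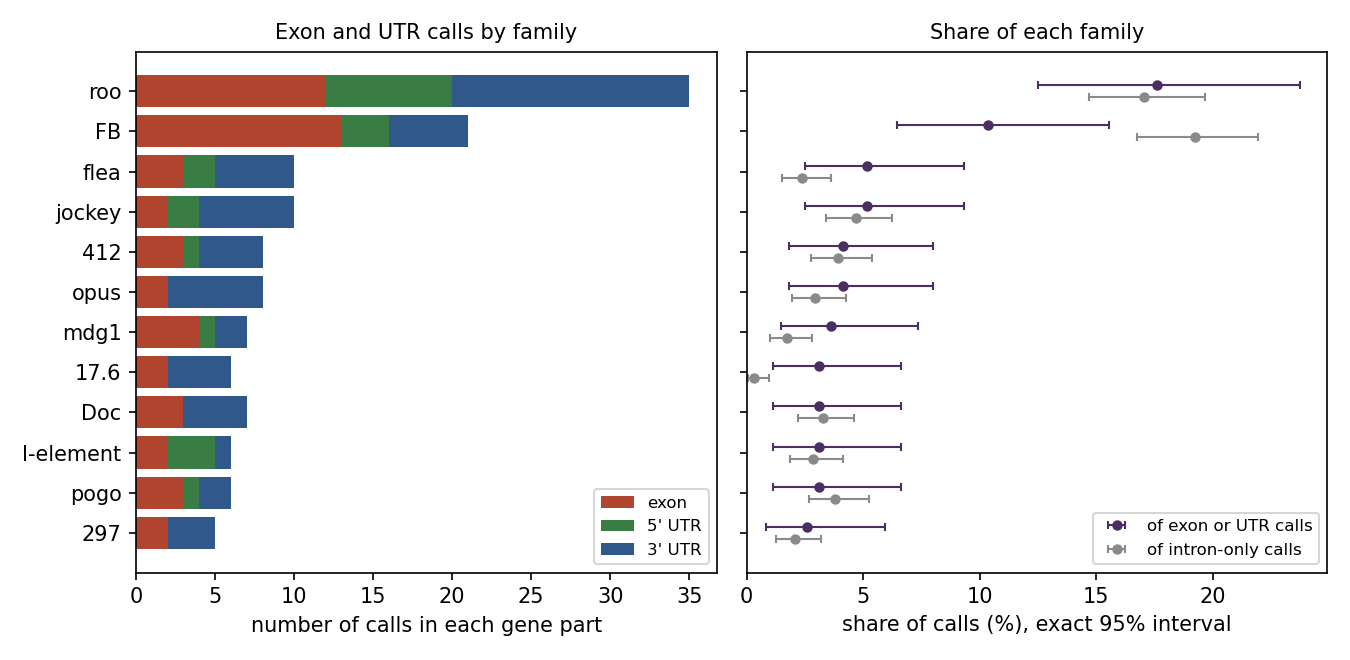
The 12 families with most exon and UTR calls, with their number of calls in each gene part (left, a call in several parts counts in each) and their share of all exon or UTR calls and of all intron-only calls (right, %, bars are exact 95% binomial intervals). *FB* is the family whose share is lower in exons and UTRs (10.4%) than in introns (19.2%) without overlap of the bars, and its share of all calls is 12.3%.

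In some calls the interval on the genome is as wide as the matched stretch of the TE. Within 10 bp this held for 37 of the 193 calls (19.2%, 13.9% to 25.4%), for 158 intron-only calls (17.2%) and for 18.5% of all calls. It was frequent in non-LTR elements, with 18 of their 33 exon or UTR calls (54.5%) and 99 of their 161 intron-only calls (61.5%). The same was seen in *flea*, with 8 of 10 exon or UTR calls and 22 of all 48 *flea* calls. The 37 calls had a median ratio of 0.6 and a median interval of 94 bp, and the other 156 had 0.8 and 220 bp. A ratio of at least 3 was reached by 3 of the 37 (8.11%), the *jockey* in CG1986, the *mdg3* in *hiw* and the *copia* in CR45136, and by 26 of the 156 (16.7%). The same split was seen in intron-only calls, with 6.96% of 158 and 16.7% of 762. Over all calls the shares were 5.71% of 315 and 18.8% of 1387. What gives equal lengths was not tested. In merged reads, the interval of the *hiw* call no longer matched, while that of the CG1986 call did.

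Calls on X had higher ratios than calls on autosomes in both sets. On X, 11 of 33 exon or UTR calls had a ratio of at least 3 (33.3%, 17.96% to 51.8%), against 18 of 160 on autosomes (11.3%, 6.81% to 17.2%). For intron-only calls the shares were 33.5% on X (26.7% to 40.9%) and 10.5% on autosomes (8.41% to 12.96%). The 33 X calls had medians of 53 supporting and 32.7 reference reads, and the 160 autosomal calls 31 and 41.5, so both counts moved with the ratio, and their part in the difference was not tested. By gene part, 4 of 9 exon calls, 0 of 7 5′ UTR calls (exact interval 0% to 41.0%) and 7 of 17 3′ UTR calls on X reached 3.

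A few genes held more than one exon or UTR call. There were 7 such genes among the 192 hosts, and in 5 of them calls of different families overlapped. Whether these are separate insertions was not tested. Overlapping pairs were *hopper* (ratio 2.6) and *hopper2* (0.6) in CG2023 (RefSeq *Sec20*), *Stalker4* (2.3) and *Stalker* (1.7) in CG6106, *Transpac* (2.7) and *297* (0.5) in CG33253, *HeT-A* (0.4) and *TAHRE* (0.1) in *Caps*, and *Max-element* (0.6) and *Doc* (0.5) in *Df31*. *Df31*, which encodes a chromatin protein, had a further *Max-element* call in an exon, and its 3 calls faced 67.6 to 82.0 reference reads. Apart from overlap, *Aplip1*, the gene of a scaffold protein of axonal transport, held a *springer* in an exon (30 supporting reads, ratio 0.8) and a *roo* in its 3′ UTR (87 supporting reads, ratio 3.3). *Zip102B*, a zinc transporter gene on chromosome 4, held a pair of *1360* calls with 17 and 9 supporting reads. Also carrying an intron-only call were 23 of the 192 hosts.

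Host genes were looked up in lists of gene functions. Of all 13962 protein-coding genes of RefSeq, 167 held an exon or UTR call (1.20%, 1.02% to 1.39%) and 651 an intron-only call (4.66%). Among 155 detoxification genes of the cytochrome P450, glutathione S-transferase and UDP-glycosyltransferase families, 6 held an exon or UTR call (3.87%, 1.43% to 8.24%) and 1 an intron-only call. The highest ratios were a *412* in the 3′ UTR of *Cyp12a5* (72 supporting reads, ratio 2.0), a *copia* in an exon of *GstE1* (76, ratio 1.8), a *roo* in an exon of *Cyp6d2* (40, ratio 0.8) and an *F-element* in an exon of *Cyp28d1* (48, ratio 0.6). None of the 6 reached the minimum of 3.

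Among 78 genes of neuronal growth and synapses, 4 held an exon or UTR call (5.13%, 1.41% to 12.6%) and 28 an intron-only call (35.9%). These were the *mdg3* in *hiw*, the *roo* in *Sema-1a*, a *297* in the 3′ UTR of *wnd* with 103 supporting reads (ratio 3.0, 2.42 to 3.59), and a *flea* in the 3′ UTR of *side* with 17 supporting reads (ratio 0.4) that merged reads did not call. *wnd* encodes a protein kinase of axon injury signaling and a target of the Hiw ligase, and *side* a protein that guides motor axons. The genes of this list had a median span of 41.4 kb, against 2.16 kb for all protein-coding genes.

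Of the 93 genes in the list of developmental transcription factors, 3 held an exon or UTR call (3.23%, 0.670% to 9.14%) and 19 an intron-only call. Beside *trh*, they were *Eip75B*, a nuclear receptor gene of the ecdysone response, with a *roo* in its 3′ UTR (31 supporting reads, ratio 0.7), and *tim* with a *roo* in an exon (6 supporting reads, ratio 0.1). *tim* is a gene of the circadian clock and not a DNA-binding regulator, so the list's name holds for 2 of these 3 genes. No exon or UTR call lay in the 67 genes of chromatin and silencing, the 85 of signaling pathways, the 15 protein phosphatases or the 92 ribosomal protein genes, with upper limits of 5.36%, 4.25%, 21.8% and 3.93%. The overall share of 1.20% lies below all of these limits. The lists are not complete, and their zeros hold for the listed genes only. *Df31*, described above as the gene of a chromatin protein, holds 3 calls and is not among the 67 genes.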

How the data were processed

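Whole genomes of ORw1118 females were sequenced from 3 biological replicates, which the authors pooled after quality filtering with Trim Galore. They called TEs with TIDAL (default parameters), on pairs taken as single-end reads and on pairs merged by SeqPrep and trimmed. The lists give 1702 and 1487 calls with 80886 and 47318 supporting reads in total.

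For each call the authors deposited counts of split reads that support the TE, not normalized. Reference reads are a signal of coverage across the empty site, normalized by the authors in a way not given in the sources used here. The deposited coverage ratio equals supporting reads over reference reads plus 1, to within 0.05. A mean BLAT score was also deposited and was not used here. The fraction of supporting reads on one side was deposited by the authors. Other deposited columns are positions, whose unit is bp.

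Members were taken by the authors' class, and intron-only calls had no other class. Calls were shared between lists at the same family and an overlap of at least 1 bp. Gene spans and types came from RefSeq (Release 6), and strand from the lists. TE types were assigned by hand, with *FB* counted as TIR. Intervals are exact (Clopper-Pearson for shares, Poisson for reads, order statistics for medians) at 95%. For a single ratio, the Poisson limits of its supporting reads were divided by its reference reads plus 1, taken as free of error. Scripts were tested on simulated lists. Python 3.11.15, numpy 2.4.6, pandas 2.3.3, scipy 1.17.1 and matplotlib 3.10.9 were used.

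The members, gene lists and comparisons were chosen with earlier results of these data known. Named were, per gene part, the 8 calls with the highest ratio among those in both lists and the 3 with most supporting reads at a ratio under 0.5, hosts with 2 or more calls, members among the insertions studied by FISH, up to 4 members per gene list and the 5 most frequent families. The calls near the minimum, those whose class changed between the lists and *opus*, which ties with *412*, were named after their values were seen. The orientation of the TEs and their sequences were not analysed here.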

Additional observations from a re-analysis of the deposited data

Results flagged for a closer look

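Merged reads hold 5 exon or UTR calls that have no counterpart of the same family in reads treated as single-end, and which are therefore outside the comparisons above. A *Doc* in an exon of *btv* and an intron of CG5674 had 4 supporting reads and a coverage ratio of 0.1. Another *Doc*, in an exon of CG31089 and labelled as 3′ UTR of the RNA gene CR43259, had 6 supporting reads and a ratio of 0.1. In the 5′ UTR of *nonA*, a *Tc1* had 9 supporting reads and a ratio of 0.2. A *roo* labelled as 5′ UTR of the RNA gene CR45572 had 15 supporting reads and a ratio of 0.4. The best supported was a *pogo* in the 3′ UTR of *Kmn1* on X, with 23 supporting reads (8 and 15 on its sides) and a ratio of 0.9. None of the 5 has a ratio of at least 1. They were picked out because they appear only in the list that the comparisons above do not use, and no control sample gives a background for them.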

How the results depend on the processing

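Of 185 values recomputed under 13 settings, 154 stayed within the exact interval of the reported value or, for counts, within 1.5 times of it, and none of the settings had a test to change. With a minimum ratio of 2 the share of calls past it was 25.4% for exon or UTR calls, 26.6% for intron-only calls and 26.7% for exon calls, and with a minimum of 5 it was 2.59%, 3.48% and 1.33%, with 0% for 5′ UTR and 4.49% for 3′ UTR calls. Calls found in both lists gave median ratios of 1.1 and medians of 44 supporting reads for exon or UTR and for intron-only calls alike, and 17.8% of intron-only calls past a ratio of 3. At least 10 supporting reads gave median ratios of 1.2 for both, medians of 49.5 and 47 supporting reads, and 18.7% of intron-only calls past 3. In merged reads, intron-only calls had a median of 25 supporting reads, and 97.1% of exon or UTR, 96.8% of exon, 93.5% of 5′ UTR, 97.5% of 3′ UTR and 97.7% of intron-only calls had a counterpart in the longer list. Without *FB*, LTR elements were 68.8% and TIR elements 12.1% of exon or UTR calls, and without *roo* and *FB* non-LTR elements were 23.7% and TIR elements 15.1%. Settings chosen after seeing the data gave 9.62% non-LTR calls without calls as wide as their TE match, 21 5′ UTR calls in protein-coding hosts, and 10.5% of intron-only calls past 3 without X.

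With replicates pooled before calling, no replicate could be left out. No paired analysis was possible because there is 1 group. The share of calls found in both lists was not recomputed among calls found in both lists, where it is complete by construction. Depth limits single calls: the fewest supporting reads in the list are 4, and most exon or UTR calls that merged reads lack have fewer than 10. The normalization of reference reads, and the mapping of reads from similarly named TEs such as *hopper* and *hopper2* or of multi-copy hosts, could not be examined from the lists.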
